A study of Mus musculus with 5 samples.

Results

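The RNA of cultured HL-1 cells was examined on 2 of the 5 arrays of the series, the pair hybridised with cell RNA. HL-1 is a mouse line derived from an atrial tumour in which the SV40 large T antigen was driven by the atrial natriuretic peptide promoter, and its cells divide in culture while keeping features of atrial muscle. The cells were untreated and grown in Claycomb medium, a medium made for this line. Total RNA was amplified to Cy3-labelled cRNA and hybridised to 1-colour mouse BeadChips, with both arrays on the same chip. Array 1 and array 2 carry replicate numbers, but the labels do not say that they came from separate cultures, so the spread between them may be technical. The series studied what microvesicles released by heart muscle cells carry, and the cell RNA is described here without comparison to the vesicles.

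Atrial cardiomyocytes are heart muscle cells that contract through sarcomeres, in which thick myosin filaments slide along thin actin filaments anchored at Z-discs. Each beat begins with an action potential, which releases calcium from the sarcoplasmic reticulum, and the contraction is paid for mainly by mitochondrial oxidation of fatty acids. The atria also act as an endocrine organ that secretes natriuretic peptides. Adult cardiomyocytes rarely divide, so a dividing atrial line carries muscle genes and cell cycle genes side by side.

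The members of the set were the probes with a deposited detection p under 0.01 on both arrays. That p is the share of negative control probes on the same array that were at least as bright as the probe. Of 25697 probes, 3470 (13.5%) were detected on both arrays, 868 on 1 array and 21359 on neither. Array 1 detected 4179 probes and array 2 detected 3629, where chance alone would give 257 on each. The median raw signal was 63.6 on array 1 and 62.6 on array 2, and the lowest detected signals were 80.3 and 79.1. A gene was counted as detected when any of its probes was detected on both arrays, and its brightest probe gives its values. Of 16593 named genes, 2826 (17.0%) were detected on both arrays, 661 on 1 array and 13106 on neither. Detected genes had a median signal of 178, with 322 genes above 1000 and 17 above 10000, against a median of 64.3 over all named genes. A gene called not detected had a signal within the range of the negative controls, which does not show that its transcript was missing. Signals order probes by brightness and not transcripts by number, because probes bind with different affinity.

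Olfactory and vomeronasal receptor genes, which serve smell and pheromone sensing, were taken as a second background level. Whether these cells use any of them was not tested. Of 1193 such genes, 5 (0.419%) were detected on both arrays and 6 on 1 array, and without array 2 the count was 9. The brightest receptor probe had a signal of 92.1 on array 1 and 99.6 on array 2. It was that of Olfr724 on both arrays, so this level rests on 1 probe. Olfr748, the next by mean signal, had 88.6 and 84.6. Above every receptor probe on each array lay 2096 named genes (12.6%), while 730 detected genes did not reach that level. Both shares, 17.0% detected and 12.6% above the receptors, are the background for the gene lists that follow.

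**Figure D1:**
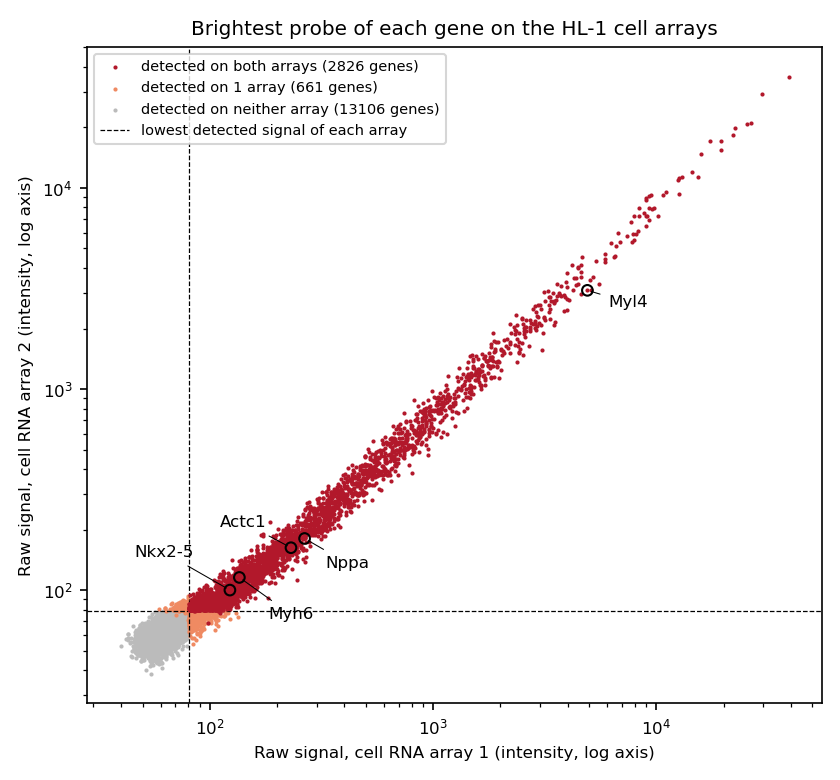
Raw signal of each named gene's brightest probe on cell RNA array 1 (horizontal, log axis) and cell RNA array 2 (vertical, log axis). Genes detected on both arrays run from about the lowest detected signals of 80.3 and 79.1 to 39095 and 35695 for Rplp1, and genes detected on neither gather around the medians of 63.6 and 62.6. For 2 genes detected on both arrays the brightest probe was not the detected one, so their points can lie outside the threshold.

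All 5 markers fixed for the cell type were detected on both arrays, and all 5 lay above every receptor probe. Nkx2-5 did so only narrowly on array 2, at 100.05 against 99.65, with a standard error over its beads of 4.13. In RNA from a whole culture, fewer cells using a gene and less RNA per cell cannot be told apart. Nppa, which encodes the precursor of atrial natriuretic peptide (chr4:148000722-148002074, GRCm38.p6), had a signal of 265 on array 1 and 181 on array 2, a mean of 223 ± 59.8 (SD, n = 2). Myl4, the atrial essential myosin light chain (chr11:104546017-104587215), had 4906 and 3097, a mean of 4001 ± 1279 (SD, n = 2). Myl4 was the brightest marker, at rank 63 of all named genes, while Nppa stood at rank 1184.

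Actc1, cardiac alpha-actin (chr2:114047282-114052875), had a signal of 230.5 on array 1 and 163 on array 2, a mean of 197 ± 48.0 (SD, n = 2). Its other probe was also detected, at 107 and 106. Myh6, the fast alpha-myosin heavy chain (chr14:54941921-54968017), had 135 and 116, a mean of 126 ± 13.9 (SD, n = 2). The other Myh6 probe was not detected, at 64.3 and 61.7. Nkx2-5, a homeobox transcription factor of heart development (chr17:26838664-26844988), had 123 and 100.1, a mean of 111 ± 16.1 (SD, n = 2). Array 1 was the brighter of the pair for every marker, and Myh6 and Nkx2-5 sat at ranks 1888 and 2084, near the dim end of the detected genes.

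The promoter windows of 4 markers are printed to show the sequence around a start of each gene. Each runs from 250 bases before to 50 bases after a start that RefSeq gives on GRCm38.p6, 5′ to 3′ on the gene's strand. The windows are chr4:148000472-148000771 on the plus strand for Nppa, chr2:114052826-114053125 on the minus strand for Actc1, chr14:54966558-54966857 on the minus strand for Myh6 and chr11:104550413-104550712 on the plus strand for Myl4. Capitals mark matches, on either strand, to TATAAA, to GATAA (the core read by GATA factors, written TTATC where it lies on the other strand), to AAGTG (a core read by Nkx2-5), to the CArG box of serum response factor and to the MEF2 site.
Nppa: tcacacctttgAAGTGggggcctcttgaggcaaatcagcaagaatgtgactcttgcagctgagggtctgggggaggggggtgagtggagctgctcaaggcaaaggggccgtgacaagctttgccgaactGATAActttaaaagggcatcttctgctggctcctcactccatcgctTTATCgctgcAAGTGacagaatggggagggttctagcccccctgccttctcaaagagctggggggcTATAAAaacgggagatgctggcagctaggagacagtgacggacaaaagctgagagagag
Actc1: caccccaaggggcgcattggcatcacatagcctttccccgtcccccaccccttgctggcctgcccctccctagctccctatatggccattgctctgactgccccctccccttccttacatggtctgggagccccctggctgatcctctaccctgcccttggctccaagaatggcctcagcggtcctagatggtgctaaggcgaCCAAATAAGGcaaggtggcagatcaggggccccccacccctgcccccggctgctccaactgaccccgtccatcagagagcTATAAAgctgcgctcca
Myh6: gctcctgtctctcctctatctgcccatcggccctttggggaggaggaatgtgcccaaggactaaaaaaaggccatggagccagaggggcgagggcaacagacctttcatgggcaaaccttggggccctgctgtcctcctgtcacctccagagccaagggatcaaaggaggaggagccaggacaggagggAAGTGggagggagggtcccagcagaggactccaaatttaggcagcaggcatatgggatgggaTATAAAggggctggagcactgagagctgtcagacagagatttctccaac
Myl4: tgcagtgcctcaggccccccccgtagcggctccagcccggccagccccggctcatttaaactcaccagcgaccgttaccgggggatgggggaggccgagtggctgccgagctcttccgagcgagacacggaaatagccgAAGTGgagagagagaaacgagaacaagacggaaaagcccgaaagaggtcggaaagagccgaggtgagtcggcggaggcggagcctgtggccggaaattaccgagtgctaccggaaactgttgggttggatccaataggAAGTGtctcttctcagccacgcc
The Nppa window holds GATAA on each strand, AAGTG at 2 places and TATAAA. The Actc1 window holds a CArG box and TATAAA, the Myh6 window AAGTG and TATAAA, and the Myl4 window AAGTG at 2 places. By offset from the start, TATAAA began at -9 in Nppa, 33 in Actc1 and 1 in Myh6, where a minus sign means before the start. The Myh6 and Myl4 windows lie inside the gene spans given above, and whether these cells use these starts was not tested. The window of the remaining marker, Nkx2-5, held no match to these letters and is not printed. The Myl4 window has 25 CpG dinucleotides, against 6 in Nppa, 7 in Actc1 and 2 in Myh6. Of 13335 windows of all named genes, 12.7% held TATAAA, 22.0% GATAA, 45.2% AAGTG, 1.45% a CArG box and 2.80% a MEF2 site. A match to such short letters is a description and does not show binding.

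Among the contractile genes, the thick filament list had 7 of 12 members detected on both arrays (58.3%) and 6 above every receptor probe, against 17.0% and 12.6% of all named genes. After Myl4, the brightest was Mybpc3, cardiac myosin-binding protein C, with 2864 on array 1 and 2129 on array 2. Myl2, the ventricular regulatory light chain, had 219 and 157, and Ttn, the giant spring protein titin, had 202 and 125. Myl3, the ventricular essential light chain, had 160 and 116, while Myh6 and Myl7, the atrial regulatory light chain, were the dimmest of those detected. Both atrial and both ventricular light chain genes were thus detected. The slow beta-myosin gene Myh7 was not detected, at 70.7 and 63.9, nor were Myom1, Myom2, Mylk3 and Mybphl.

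Of 11 thin filament genes, 6 (54.5%) were detected and 4 lay above every receptor probe. Acta2, smooth muscle alpha-actin, which embryonic cardiomyocytes also use, was by its brightest probe the brightest heart-list gene of all, at 6495 and 4562. The other Acta2 probes were detected but far dimmer, at 203, 187 and 157 on array 1 and 148, 130 and 139 on array 2. Tnnc1, the calcium-binding troponin C of heart and slow muscle, had 3340 on array 1 and 2860 on array 2, and Tpm1, alpha-tropomyosin, had 1098 and 861. Actc1 followed in the order of signal, and Tmod1, a cap of the pointed filament end, had 139 and 97.5. Troponin I gave no detected probe: Tnni3, the adult cardiac form, had 76.5 and 61.7, and Tnni1, the slow skeletal and fetal form, had 68.5 and 56.9. Acta1, skeletal alpha-actin, had 73.7 and 68.5 and was not detected either.

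The Z-disc and cytoskeletal list had 10 of 19 members detected (52.6%) and 6 above every receptor probe. Fhl1, a LIM-domain protein of stretched muscle, had 3651 and 3010, and Csrp3, the muscle LIM protein, had 2560 and 1877. Actn2, the actinin that crosslinks actin at the Z-disc, had 1252 and 866, and Des, the muscle intermediate filament desmin, had 532 and 475. Pdlim3, a PDZ and LIM protein of the Z-disc, had 359 on array 1 and 301 on array 2. Ankrd1, Ldb3, Tcap, Sgca and Fhl2 were also detected, Cryab was detected on 1 array, and Nexn, Xirp1, Synpo2l, Pdlim5, Cap2, Dmd, Ankrd2 and Myoz2 were not. The intercalated disc, which couples neighbouring cells, stood lower, with 2 of 13 genes detected (15.4%), a share near the background of 17.0%. Those were Pkp2, desmosomal plakophilin, at 347 and 234, and Ctnna1, alpha-catenin, at 303 and 210.4. Gja1, the gap junction protein connexin 43, was detected on 1 array only, at 81.3 on array 1 and 67.5 on array 2, and the atrial connexin gene Gja5 on neither.

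**Figure D2:**
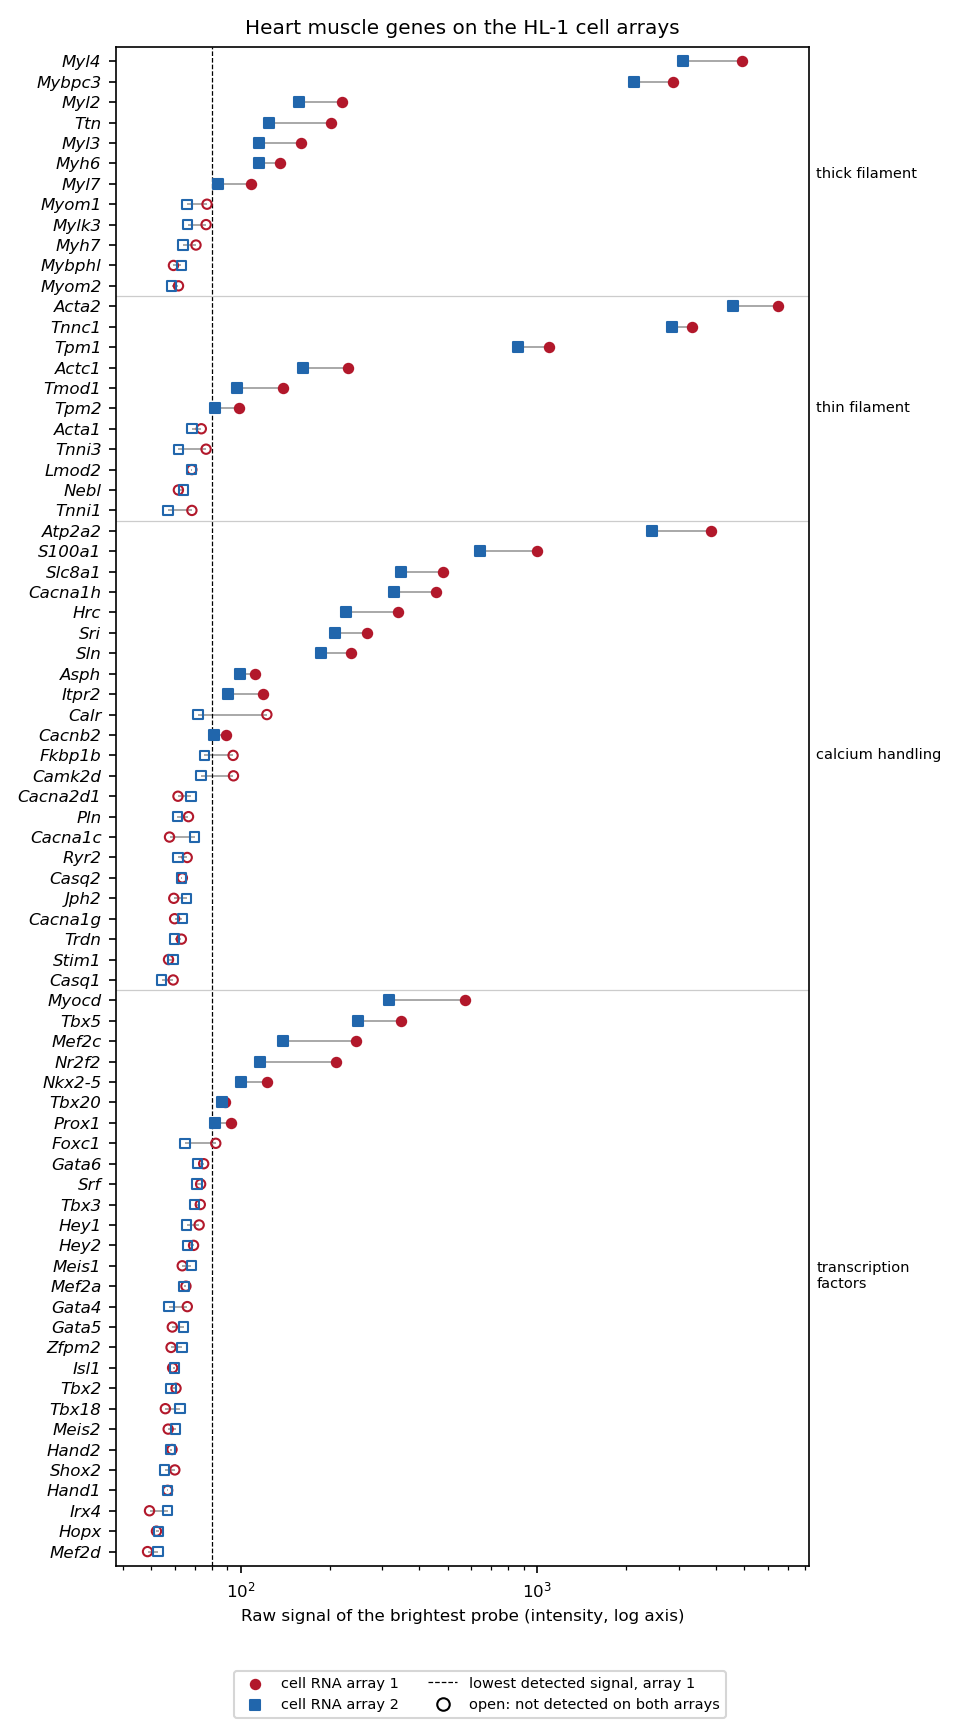
Raw signal (log axis) of heart genes by role on cell RNA arrays 1 and 2, with filled symbols for genes detected on both arrays and open symbols for the rest. Acta2, Myl4, Mybpc3, Atp2a2 and Tnnc1 lie above 1000 on both arrays, while Myh7, Tnni3, Ryr2, Pln and Gata4 lie left of the lowest detected signal of 80.3.

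Calcium handling genes were detected at 10 of 23 (43.5%), with 7 above every receptor probe. Atp2a2, the pump that returns calcium to the sarcoplasmic reticulum, had 3847 and 2437, more than any other gene of the list. The other Atp2a2 probe was detected at 137 and 116. S100a1, a calcium sensor that acts on the pump and the release channel, had 999 and 643, and Slc8a1, the sodium-calcium exchanger, had 483 and 348.5. Cacna1h, a T-type calcium channel found in embryonic and pacemaking heart cells, had 458 and 330.
Hrc, a calcium-binding protein of the reticulum lumen, had 339 and 226. The release channel gene Ryr2, at 66.0 and 61.4, was not detected, and neither was phospholamban, Pln, at 66.7 and 61.1. Sarcolipin, Sln, the regulator of the same pump that prevails in atria, was detected at 235 and 187. Casq2, Jph2, Trdn and the L-type channel gene Cacna1c, with 4 probes, were among the others not detected.

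Ion channel and sodium pump genes were detected at 6 of 18 (33.3%), with 5 above every receptor probe. Kcnh2, which carries the rapid delayed rectifier current that ends the action potential, had 4463 and 4056, and a second Kcnh2 probe had 2692 and 2051. Atp1b1, the beta subunit of the sodium pump, had 4583 and 2971. Both stood among the 100 brightest genes, whereas the next, Kcnq1 of the slow delayed rectifier, had 179 and 139.5, and its partner Kcne1 had 175 and 120.4. Kcnk3, a background potassium channel of atrial cells, had 133 and 111, and Fxyd1 was also detected. The atrial potassium channel genes Kcnj3, Kcnj5 and Kcna5 and the inward rectifier gene Kcnj2 were not detected. The pacemaker channel gene Hcn2 was not detected.

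Cardiac transcription factors were detected at 7 of 28 (25%), with 5 above every receptor probe. Myocd, the myocardin coactivator of serum response factor, had 571 on array 1 and 318 on array 2. Tbx5, a T-box factor of the atria, had 348 and 248, and Mef2c, a factor for muscle differentiation, had 245 and 139. Nr2f2, which sets atrial identity in the mouse, had 210.0 and 116. Nkx2-5, Tbx20 and Prox1 were detected at lower signal, and Foxc1 on 1 array. Gata4, at 66.1 and 57.3, and Gata6, at 75 and 71.6, were not detected, nor were Gata5, Srf, Hand1, Hand2, Mef2a, Mef2d and Isl1.

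Set against chamber identity, 8 of 15 atrial genes (53.3%) and 3 of 10 ventricular genes (30%) were detected on both arrays. The atrial 8 were Myl4, Tbx5, Nppa, Sln, Stard10, Nr2f2, Nppb and Myl7, and 7 of them lay above every receptor probe. Gja5, Kcnj3, Nr2f1, Kcna5, Fgf12, Bmp10 and Dbh were the atrial genes not detected. The ventricular 3 were Lbh, a transcriptional cofactor, at 443 and 303.5, with Myl2 and Myl3, which also stand in the thick filament list. Hey2, Irx3, Irx4, Irx5, Kcnip2, Xdh and Myh7 were not detected. The sum of signals over the list was 6902 on array 1 and 4704 on array 2 for the atrial genes, most of it from Myl4, and 1256 and 999 for the ventricular genes. These raw sums include background and the undetected genes, over lists of 15 and 10 genes, so they do not weigh 1 chamber against the other.

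Secreted factors were detected at 8 of 22 (36.4%), and all 8 lay above every receptor probe. Sparc, a collagen-binding matrix protein, had 4043 and 2777, and Clu, the extracellular chaperone clusterin, had 1584 and 1153. Furin, a protease that cleaves proproteins, had 1251 and 839. Tgfb1, a growth factor, had 212 and 198, and Nppb, brain natriuretic peptide, had 149 and 146. Corin, the protease that processes pro-atrial natriuretic peptide, and Pam, a granule enzyme of atrial cells, were not detected. Receptors and their signalling partners were detected at 2 of 15 (13.3%), below the background of 17.0%. Igf1r, the insulin-like growth factor receptor, had 120.4 and 111, and Chrm2, the muscarinic receptor that slows the heart, was detected through the dimmer of its probes, at 82.8 and 80.9.

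Creatine kinase and related energy-transfer genes were detected at 3 of 9 (33.3%). Ckmt2, the mitochondrial creatine kinase of sarcomeric muscle, had 2713 and 2202, and Ckmt1, its ubiquitous counterpart, had 1308 and 1274. Ckb, the brain-type cytosolic form, was detected close to the threshold at 93.2 and 80.8. The muscle-type cytosolic form Ckm, at 71.7 and 67.2, and the oxygen-binding protein gene Mb, at 71.7 and 77.6, were not detected. Over all heart lists, 63 of 179 genes (35.2%) were detected on both arrays and 48 lay above every receptor probe, which is above the 17.0% and 12.6% of all named genes.

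Over all proliferation lists, 47 of 129 genes (36.4%) were detected and 37 lay above every receptor probe. That total includes the list of cell cycle inhibitors and DNA damage targets, which had the largest share, 8 of 15 (53.3%). DNA replication came next, with 18 of 40 genes (45%) detected. Rpa1, which coats single-stranded DNA, had 2883 and 1971, and Rfc2, a subunit of the clamp loader, had 1447 and 1180. Pole3, a DNA polymerase epsilon subunit, had 1013 and 918. Cdc45, part of the replicative helicase, had 665 and 491, and Mcm7, a subunit of the same helicase, had 570 and 374. Pcna, the sliding clamp, was detected on 1 array only, at 83.1 and 67.1, and Mcm3, Mcm5, Fen1 and Tyms on neither.

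Mitosis genes were detected at 13 of 41 (31.7%), with 10 above every receptor probe. Birc5, the survivin subunit of the chromosomal passenger complex, had 1658 on array 1 and 1297 on array 2, and all 3 of its probes were detected. Kif2c, a kinesin that removes microtubule ends, had 1612 and 1236, and Aurka, the Aurora A kinase of spindle poles, had 1466 and 1185. Cdc20, an activator of the anaphase-promoting complex, had 1071 and 682 and was detected by all 4 of its probes. Cdc25c, the phosphatase that starts mitosis, had 339 and 271. Cdk1, the kinase it acts on, was not detected by any of 3 probes, the brightest at 68.9 and 65.6, and Top2a, at 58.6 and 66.0, was not detected.

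Regulators of entry into the cycle were detected at 4 of 19 (21.1%), close to the background of 17.0%. Ccnd3, a D-type cyclin, had 265 and 189, and Tfdp1, the partner of E2F factors, had 262 and 163. Cdk2, the kinase bound by E-type and A-type cyclins, had 167 and 111, and Ccne1, cyclin E, had 103 and 89.4. Ccnd1, with 3 probes, Ccnd2, Ccna2, Myc and E2f1 were not detected. Histone and chromatin-assembly genes were detected at 4 of 14 (28.6%), led by the replacement histone gene H3f3a at 637 and 373.

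Inhibitors of the cycle and targets of the DNA damage response were detected at 8 of 15 (53.3%), with 6 above every receptor probe. Cdkn1c, the inhibitor p57, had 3569 and 3316 and was the only proliferation-list gene among the 100 brightest. Mdm2, a ubiquitin ligase induced by DNA damage, had 2209 and 1507, and Cdkn1a, the inhibitor p21, had 1104 and 860.2. Ccng1, cyclin G, had 911 and 613, and Gadd45g, a stress-induced gene, had 186 and 145. Cdkn1b and Cdkn2c were also detected, and Cdkn2a, which encodes p16 and p19ARF, was detected on 1 array only, at 90 and 61.

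**Figure D3:**
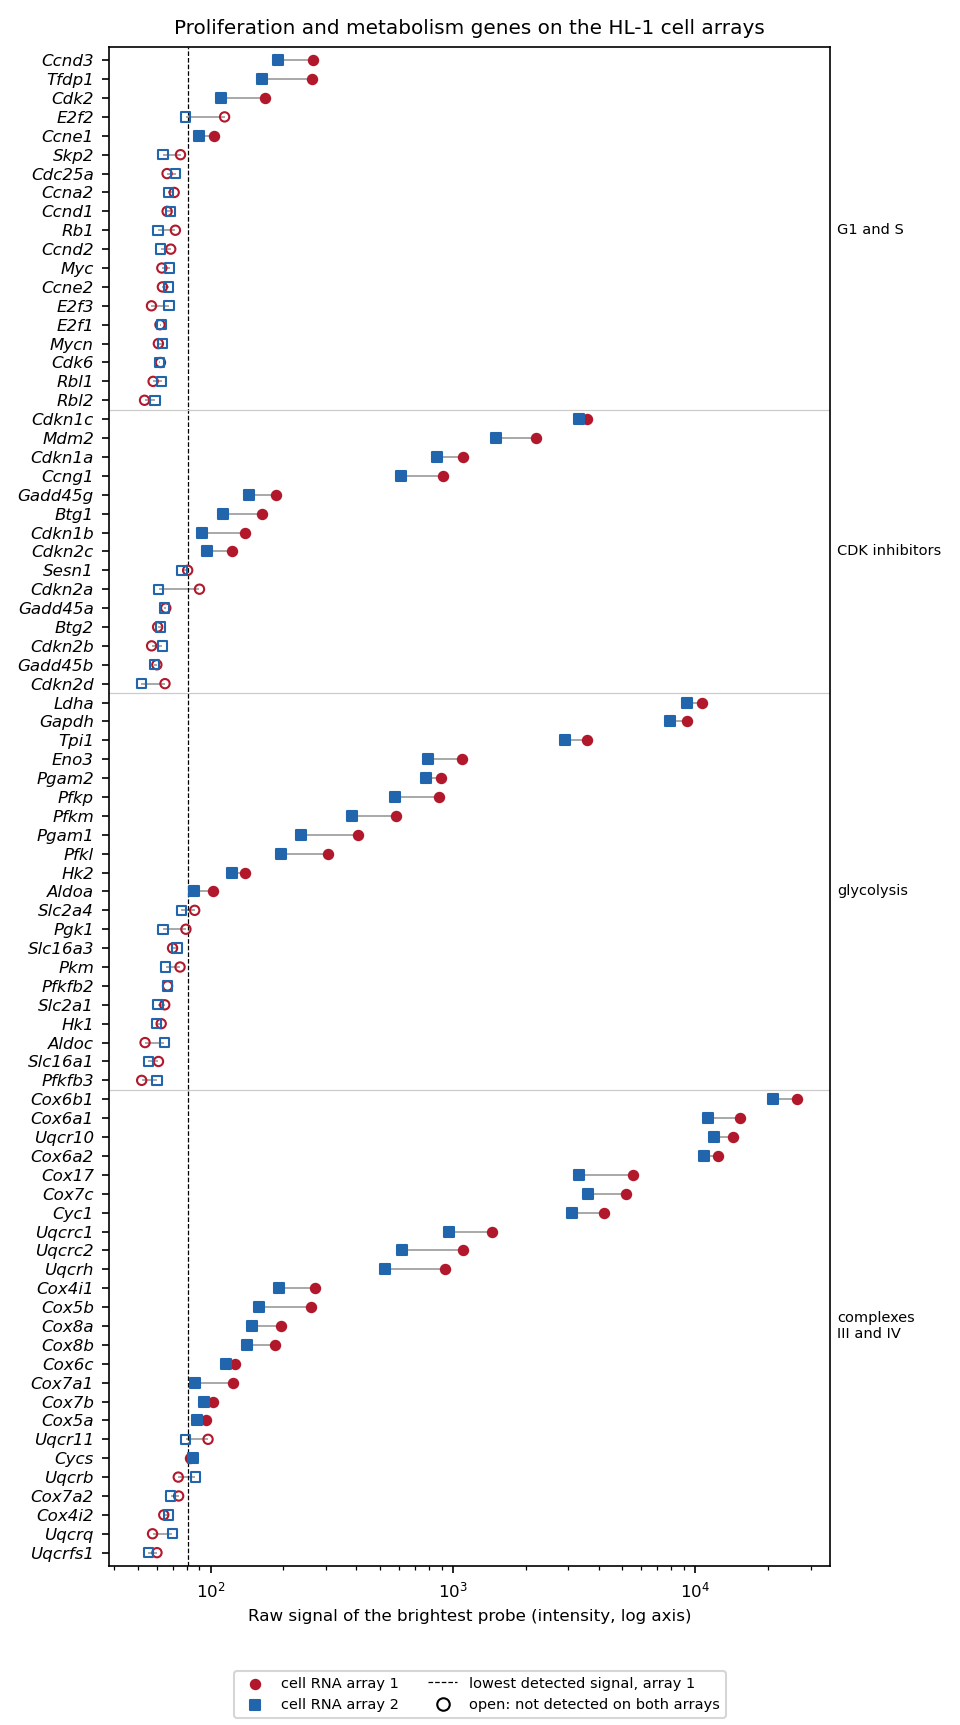
Raw signal (log axis) of genes of cell cycle entry, cell cycle inhibition, glycolysis and respiratory complexes III and IV on cell RNA arrays 1 and 2, with filled symbols for genes detected on both arrays. No gene of cell cycle entry passes 265 on either array, while Cdkn1c reaches 3569 and Cox6b1 reaches 26460.2.

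Metabolic genes were detected more often than heart or cell cycle genes, at 115 of 223 (51.6%), with 91 above every receptor probe. The difference between the lists was not tested. In the respiratory chain, complexes III and IV had 19 of 25 genes detected (76.0%) and complex I had 20 of 34 (58.8%). Cox6b1, a subunit of cytochrome c oxidase, had 26460.2 and 21042, and Cox6a1, the ubiquitous form of another of its subunits, had 15362 and 11332. Cox6a2, the heart and skeletal muscle form of that subunit, had 12444 and 10899.5, so the muscle and the ubiquitous form were both bright. Uqcr10, a small subunit of complex III, had 14400.6 and 11974, and Cox17, a copper chaperone for cytochrome c oxidase, had 5526 and 3332. Other muscle forms, Cox7a1 and Cox8b, were detected too. Cox7a2, Cox4i2, Uqcrq and Uqcrfs1 were not detected.

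In complex I the brightest gene was Ndufc1, an accessory subunit, at 12628 on array 1 and 11189 on array 2. Ndufa5 had 5855 and 4705, Ndufs6 had 5116 and 3102, Ndufv3 had 3162 and 2215, and Ndufa6 had 2932 and 2287, all of them subunits outside the catalytic core. Of the 20 detected, 19 lay above every receptor probe. ATP synthase and carrier genes were detected at 15 of 21 (71.4%). Atp5b, the catalytic beta subunit, had 10145 and 7285, Atp5j2, of the membrane part, had 8095 and 5924, and Atpif1, the inhibitor that stops the enzyme running backwards, had 6901 and 5389.9. Atp5g1, a subunit of the rotor ring, had 3318 and 2223, and Atp5l, also of the membrane part, had 1932 and 1299.8.

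Fatty acid oxidation genes were detected at 15 of 35 (42.9%), with 13 above every receptor probe. The electron-transfer flavoprotein, which passes electrons from fatty acid breakdown to the respiratory chain, led the list, with Etfb at 15830.2 and 14755 and Etfa at 5875 and 4275. Acadm, the medium-chain acyl-CoA dehydrogenase, had 1842 and 1438. Slc25a20, the carnitine carrier of the inner mitochondrial membrane, had 1358 and 881, and Fabp3, the fatty acid-binding protein of heart, had 1270.1 and 768. Cpt1b, the muscle form of the gate enzyme of the pathway, was detected, and its liver form Cpt1a was not. Ppargc1b and Esrra, regulators of mitochondrial genes, were detected, whereas Ppargc1a, Ppara, Cd36 and Acadvl were not.

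Glycolysis genes were detected at 11 of 21 (52.4%), with 10 above every receptor probe. Ldha, which makes lactate, had 10659 and 9268, and Gapdh had 9237 and 7910 by its brighter probe and 2072 and 1504 by the other. Tpi1, triose phosphate isomerase, had 3586 and 2910.2. The muscle forms Eno3 and Pgam2 were both detected, enolase Eno3 with 1091 and 793 and phosphoglycerate mutase Pgam2 with 895 and 774. All 3 phosphofructokinase genes, Pfkp, Pfkm and Pfkl, were detected. Pgk1, at 79.1 and 63.6, Pkm, at 74.8 and 65.2, Hk1 and the glucose transporter gene Slc2a1 were not detected, and the muscle transporter gene Slc2a4 was detected on 1 array.

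In the citric acid cycle and at its entry, 12 of 27 genes (44.4%) were detected, of which 6 lay above every receptor probe. Ogdh, of the 2-oxoglutarate dehydrogenase complex, had 2417 and 1537, and Pdha1, of pyruvate dehydrogenase, had 1788 and 1277. Dlst, of the same complex as Ogdh, had 382 and 205, and Idh3g, of isocitrate dehydrogenase, had 359 and 203. Pdk2, a kinase that switches pyruvate dehydrogenase off, had 143 and 103. Cs, citrate synthase, was not detected at 65.0 and 64.5.

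Of the pentose phosphate, serine and one-carbon genes, 4 of 13 (30.8%) were detected. Taldo1, transaldolase, had 9449 and 9219, and Pgls, another pentose phosphate enzyme, had 1164 and 1159.7, while Tkt and Shmt1 were dimmer and Phgdh and Psat1 were not detected. Cholesterol synthesis had 8 of 17 genes detected (47.1%), led by Fdps, farnesyl diphosphate synthase, at 2538 and 2022, and Mvd, which makes isopentenyl diphosphate, at 892 and 661. Glycogen genes were detected at 3 of 12 (25%), with Gsk3b, a kinase that inhibits glycogen synthase, at 448 and 366, and Pygm, muscle glycogen phosphorylase, at 152 and 158. Pygm was brighter on array 2. Antioxidant genes were detected at 8 of 18 (44.4%). Gpx3, the secreted glutathione peroxidase, had 17463 and 17129, Gpx1, its cytosolic counterpart, had 9018 and 6471, and Prdx2, a peroxiredoxin, had 2407 and 1646. Cat, Sod2 and Hmox1 were not detected.

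**Figure D4:**
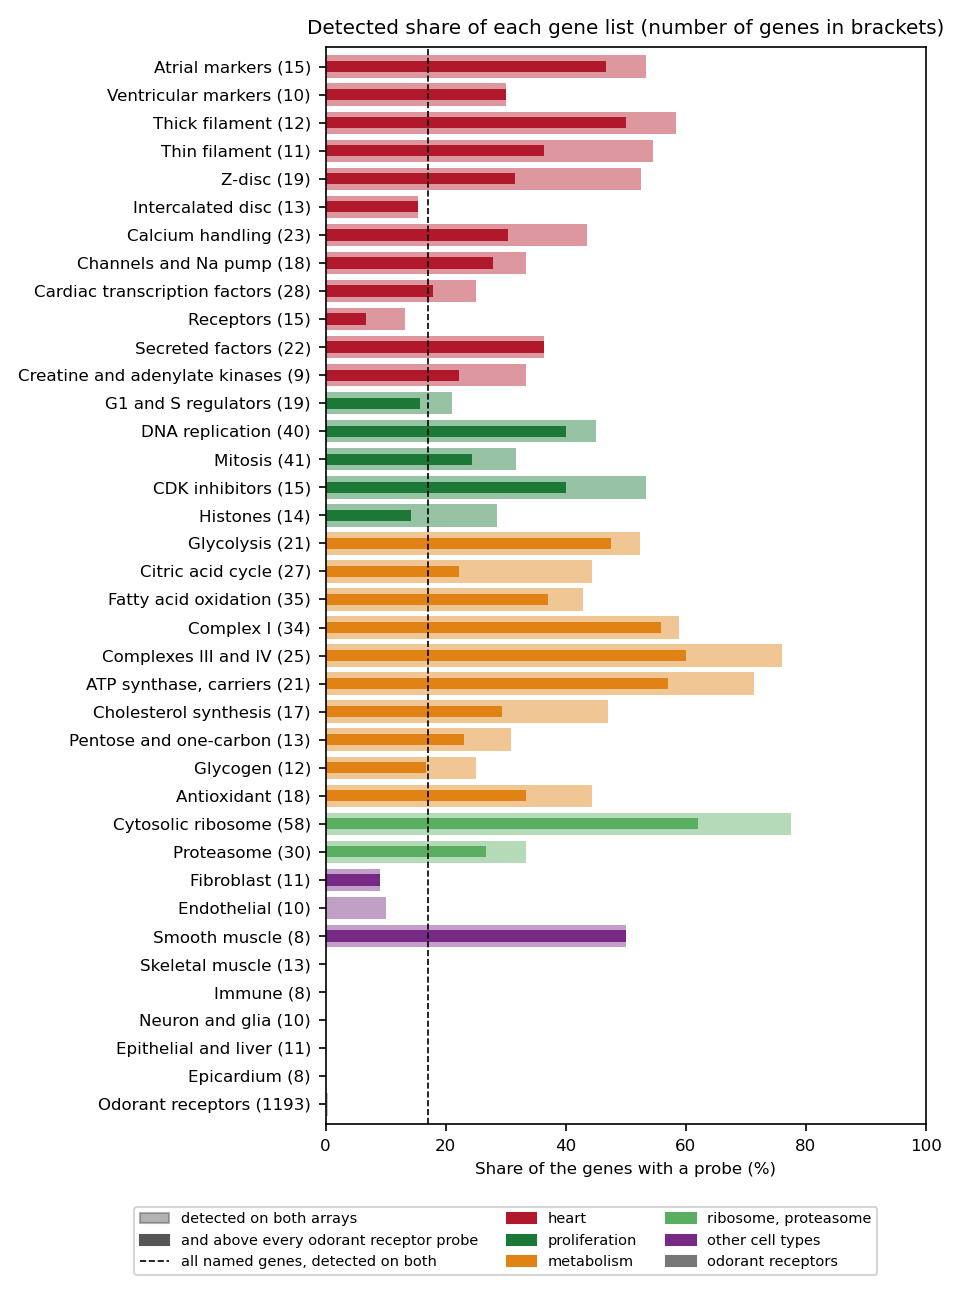
Share of each list's genes (per cent of those with a probe, number in brackets) detected on both cell RNA arrays (pale bars) and also above every receptor probe (dark bars). The dashed line marks the 17.0% of all named genes detected on both arrays, and ribosomal proteins (77.6%) and complexes III and IV (76.0%) lie furthest to the right of it.

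The 30 brightest genes held 7 cytosolic ribosomal proteins, 6 respiratory chain or ATP synthase subunits, 2 glycolytic enzymes, 1 fatty acid oxidation gene and 1 antioxidant gene from the lists, and 0 heart or proliferation genes. Rplp1, an acidic stalk protein of the ribosome, was brightest, with 39095 on array 1 and 35695 on array 2, a mean of 37395 ± 2404 (SD, n = 2). Rps2, of the small ribosomal subunit, had 29702 and 29240.1, and Rpl23a, of the large subunit, had 25461 and 20738. The others from the ribosomal list were Rps13, Rps19, Rps6 and Rpl38, and Rpl36al is a ribosomal protein outside that list. Outside the lists, Actb, cytoplasmic beta-actin, had 22508 and 19968, Dbi, which binds acyl-CoA esters, had 21986 and 18305, and Mif, a secreted cytokine, had 19446 and 15371. Mfge8, a secreted protein that bridges dying cells to phagocytes and is abundant on extracellular vesicles, had 12955 and 11290.2.

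Translation factors also stood in the brightest 30. Eef1a2, the elongation factor form that adult heart, muscle and neurons use, had 9278 and 9119, and all 3 of its probes were detected. The probe of Eef1a1, the form of most other cells, had 85.5 and 88.1, close to the threshold, a value looked up after the list had been seen. Because these are different probes, the signals do not rank the Eef1a1 and Eef1a2 transcripts by number. Tufm, the mitochondrial elongation factor, Eif3d and Eef1b2 were the others. Tubb5, a beta-tubulin, Atox1, a copper chaperone, and Aprt, an adenine salvage enzyme, completed the 30 together with the genes described above. Of the 100 brightest genes, 14 were members of the ribosomal list, 13 of the respiratory chain and ATP synthase lists, 8 of the heart lists and 1 of the proliferation lists. The 8 heart genes were Acta2, Kcnh2, Myl4, Atp1b1, Sparc, Fhl1, Atp2a2 and Tnnc1. Ribosomal proteins as a list were detected at 45 of 58 (77.6%), and proteasome subunits at 10 of 30 (33.3%), led by Psmb2 at 7355 and 5789. On neither array were 12 of the ribosomal genes detected, among them Rpl4, Rpsa and Rpl27a, each with 2 probes.

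**Figure D5:**
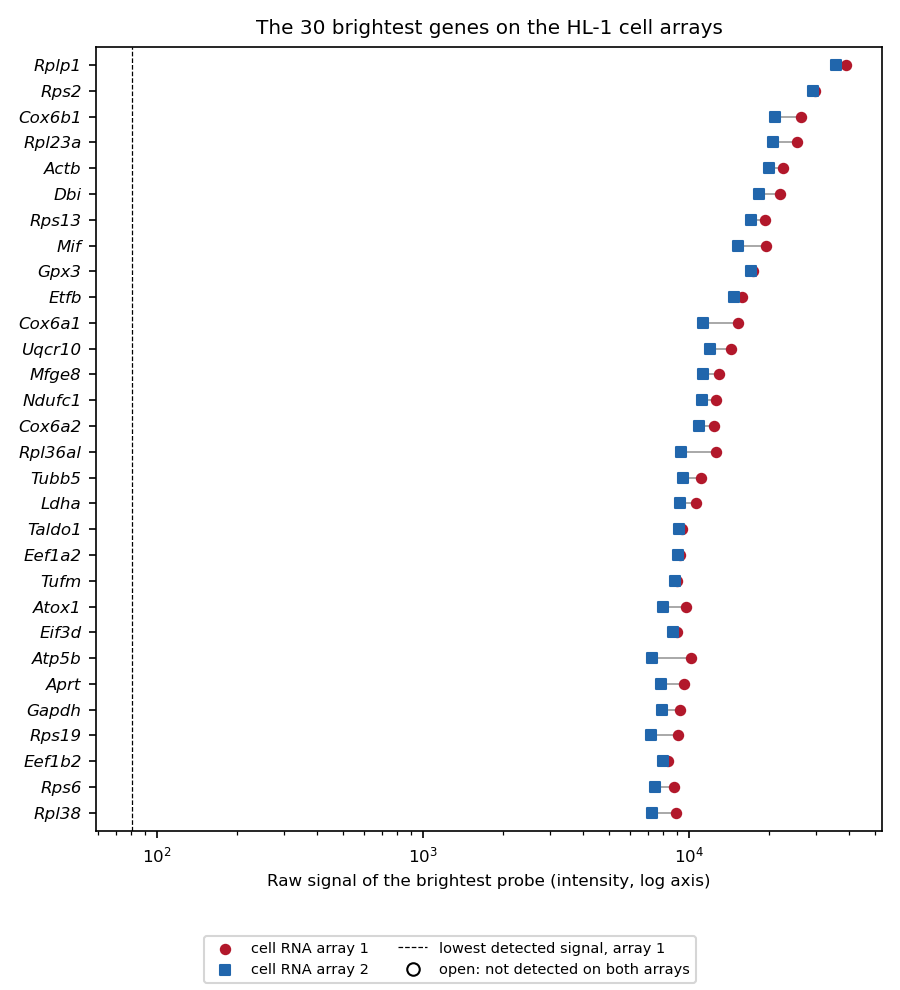
Raw signal (log axis) of the 30 brightest genes on cell RNA arrays 1 and 2, in order of their mean. Rplp1 is highest at 39095 and 35695, and Rpl38, at rank 30, has 8963 and 7286.

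Markers of other cell types were mostly not detected, at 6 of 78 genes (7.69%) detected on both arrays and 5 above every receptor probe. Skeletal muscle (13 genes), immune and blood cells (8), neurons and glia (10), epithelium and liver (11) and epicardium (8) had 0 genes detected on both arrays, and Cd3e was detected on array 2 alone, so that without array 1 the immune list held 1. The defining markers Myod1 and Myog of skeletal muscle and Ptprc of blood cells were not detected. Of 11 fibroblast markers only Vim, an intermediate filament gene of many dividing cells, was detected, at 237 and 158, and Col1a1, at 59.4 and 48.5, and Pdgfra, at 57.5 and 50.1, were not. Of 10 endothelial markers only Tek was detected, with 80.3 and 82.9, while Pecam1 and Cdh5 were not.

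Smooth muscle was the exception, with 4 of 8 markers detected on both arrays. These were Acta2, Smtn at 650.5 and 449.6 (smoothelin), Des and Tagln at 176 and 133 (transgelin). Acta2 and Des also stand in the heart lists, and both are known in cardiomyocytes. The smooth muscle myosin gene Myh11, its defining marker, was not detected at 58.2 and 58.8, nor were Cnn1, Rgs5 and Pdgfrb. The summed signal of the 8 genes was 8110 on array 1, against 5860 on array 2, most of it from the brightest Acta2 probe. The part of other cell types in these signals was not tested.

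Array 1 was brighter than array 2 for 3328 of the 3470 detected probes (95.9%), with a median ratio of 1.26. The median CV between the arrays was 16.3%, larger than the median bead standard error of 5.22% on array 1 and 5.00% on array 2. This CV was taken on raw signals, so it includes the shift in brightness between the arrays, as do the marker SDs and the differences below. Log2 signals of detected probes correlated at r = 0.991 across probes, which share the 2 arrays and are not independent replicates. Among probes detected on neither array the rank correlation was 0.512. Only 5 probes detected on either array differed by over 2-fold. Prkacb, a catalytic subunit of protein kinase A, differed most, with 244 on array 1 and 113 on array 2. Mgp, an inhibitor of calcification, had 805 and 383, Atp5c1, the ATP synthase gamma subunit, had 950.0 and 472, and Trub2, a pseudouridine synthase, had 183 and 90.9. The others of the 10 most different were Ptp4a2, Rpl23, Psmd13, Ifngr2, Tuba1b and Atp5j, all brighter on array 1.

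At the edge of the set, the dimmest named probes still inside were those of Tek, Zfp513, Prpf18, Pim3 and Ptprs, whose lower signals ran from 79.1 to 80.3. Just outside lay Otx1, Smo, Nhlrc2, Grhl3 and E2f2. E2f2, an activator of S phase genes, had 114 on array 1 and 79.05 on array 2, so it fell short on array 2 alone.

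Many calls rested on 1 probe of several. Of 1288 genes with several probes and at least 1 detected, 168 had all of them detected and 1120 (87.0%) had an undetected probe. Dbi had probes at 21986, 102 and 66.0 on array 1, and Actb had 3 detected probes and 2 undetected ones. When every probe of a gene had to be detected, the inhibitor list held 1 gene in place of 8 and the transcription factors 1 in place of 7. The same rule left 5 atrial, 5 Z-disc, 6 calcium handling, 2 channel, 1 intercalated disc, 1 receptor and 2 cell cycle entry genes, and 7 each of glycolysis, the citric acid cycle and fatty acid oxidation, with 5 antioxidant genes. Among the undetected genes named above, Myh7, Tnni3 and Ryr2 each had 1 probe, Cdk1 had 3 and Cacna1c had 4.

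The promoters of the detected genes differed in makeup from those of all named genes. Windows were matched for 2334 of 2826 detected genes (82.6%). Their median GC content was 61%, against 57.7% over all 13335 windows, and they held a median of 21 CpG dinucleotides, against 15. TATAAA occurred in 6.90% of detected genes' windows, against 12.7% of all, GATAA in 16.2% against 22.0%, AAGTG in 43.0% against 45.2%, the MEF2 site in 1.24% against 2.80% and the CArG box in 1.93% against 1.45%. These shares describe the detected genes as a whole, carry no test and do not stand for the heart lists. Among the 50 detected heart-list genes with a window, TATAAA was found in 13, the letters GATAA in 16, the letters AAGTG in 15, a CArG box in 6 and a MEF2 site in 4, and the median was 7 CpG dinucleotides. All of these shares except that of AAGTG were above those of all named genes. Windows covered 79.4% of the detected heart-list genes, under the minimum coverage set for such a check. The check is therefore void, and no conclusion is drawn from these counts.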

How the data were processed

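The members and the gene lists were chosen with earlier results of these data known. Per the file headers, the authors deposited for every probe an average bead intensity (linear, not log), the standard error over its beads, whole-number counts of beads and a detection p-value. The raw intensity was used as deposited, with no background subtraction. The steps of the deposited p-value correspond to 798 negative control probes. A second deposited table holds processed intensity values whose medians were 3.50 on both arrays, with the normalization method not given in the sources used here. The submitters' processing notes name BeadStudio 3.3. The median probe had 41 beads and the lowest 14, and the 2 arrays limit the precision.

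Probe names came from the platform annotation, which gives 1 symbol for 23978 probes and none for 1719. RefSeq (GRCm38.p6) held the gene identifiers of 23962 probes, with 0 differing symbols. In the 40 lists beside the olfactory and vomeronasal receptors, 718 genes had a probe, and 105 entries matched none and were not analysed here. The text names the 30 brightest genes, the 5 markers, the 5 brightest detected members of each list, the 5 probes on each side of the threshold and the 10 genes differing most between arrays. Values of other list members, mainly undetected ones, were chosen after they were seen. No test across samples was made, since 1 group of 2 arrays allows none, and values are mean ± SD (n = 2). Detection counting was run on simulated data as a check of the procedure. The spreads of the simulated negative controls and absent probes were set in advance, so it does not measure false calls on these arrays. Alternatives used log2 values from neqc in limma 3.58.1 with R 4.3.3 (offset 16, quantile normalization). The remaining steps used Python 3.11.15 with pandas 2.3.3, numpy 2.4.6 and matplotlib 3.10.9.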

Additional observations from a re-analysis of the deposited data

How the results depend on the processing

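At a detection p under 0.05 in place of 0.01, 4564 probes and 3666 genes were detected on both arrays, and at a p of 0, meaning brighter than every negative control, 2906 probes and 2379 genes. Requiring 1 array alone gave 3629 to 4179 probes and 2953 to 3364 genes, and for the heart lists 63 to 72 genes, the proliferation lists 50 to 57, the metabolism lists 118 to 125 and the markers of other cells 6 to 7. Detection on either array gave 4338 probes, and a minimum of 10 beads left 3470. Requiring all probes of a gene to be detected cut the count to 1706 genes, with 36 heart, 29 proliferation, 85 metabolism and 5 other-cell genes, which follows from the rule, since most genes with several probes have an undetected one. The level of the brightest receptor probe, chosen after seeing the data, left 2096 genes, with 48 heart, 37 proliferation, 91 metabolism and 5 other-cell genes. Of the 30 brightest genes, 30 were shared with the ranking by processed values, 29 with that by neqc values and 28 to 29 with that of 1 array alone. The median log2 difference of array 1 minus array 2, over probes detected on at least 1 array, was 0.31 in raw signal and 0.28 after median scaling, but 0.0143 after neqc and 0.0146 in the processed values, an alternative chosen after seeing the data. Quantile normalization within neqc gives both arrays the same distribution by construction, and for the processed values the cause was not tested. The median absolute log2 difference over the same probes was 0.307 in raw signal, 0.285 after median scaling, 0.197 after neqc and 0.195 in the processed values. Of the 41 lists, 28 kept a count within 1.5 times under the all-probes rule, 34 under the receptor level, 36 at a p of 0, 35 at a p under 0.05, and 39 without each array. No paired analysis was possible because only 1 group of 2 arrays is described.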

Other observations

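Of 14 imprinted genes, which are expressed from 1 parental copy, 2 were detected on both arrays (14.3%, against 17.0% of all named genes). Cdkn1c, also in the list of cell cycle inhibitors, had 3569 on array 1 and 3316 on array 2, and its neighbour in the same imprinted cluster, Phlda2, which restrains placental growth, had 262 and 240.2. Igf2, Nnat and Grb10 were detected on 1 array, and without array 2 the list held 5 detected genes. Of 10 genes of pluripotent and germ cells, 0 were detected on both arrays, among them Pou5f1, Sox2 and Nanog, and Ddx4 was detected on array 2 alone, so without array 1 the count was 1. At an unadjusted detection p under 0.05 on both arrays it was also 1.

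With the olfactory and vomeronasal receptors left out, 2819 of the 15389 named genes placed on a chromosome (18.3%) were detected on both arrays. By chromosome the share ran from 9.70% on chromosome 13 and 10.9% on X to 22.6% on chromosome 17, and 0 of 15 Y-linked genes were detected. Of 1719 probes without a gene name, 200 (11.6%) were detected on both arrays, and 3 of them stood among the 30 brightest probes, the brightest with 25785 on array 1 and 23572 on array 2.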
